A study of Mus musculus with 6 samples.

Results

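The genes of purine, pyrimidine and deoxynucleotide (dNTP) synthesis were examined in RAW264.7 cells, an established mouse macrophage-like cell line, after transfection of miR-342-3p. The list was set by gene symbol and held 37 genes of known function in these steps. A gene was measured through the probe sets that the array annotation assigns to it alone, and where there were several, the one whose values spread most over the 6 arrays (by interquartile range) was used. In this way 36 of the 37 genes were measured, among 19938 genes in all, and Impdh2 was not. The measured genes comprised 16 of the purine steps, 8 of the pyrimidine steps and 12 of the dNTP steps.

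Both groups were RAW264.7 cells from 12-well plates, transfected with the reagent DharmaFECT 3 according to the methods. The control group received negative control mimics, and the other group received miR-342-3p mimics, which are synthetic RNAs that act as the mature microRNA. Total RNA was taken 18 h after transfection, and 150 ng of it was labeled for an Affymetrix whole-transcript mouse gene array, with 3 arrays in each group. The legend of the study calls the samples of a group independent experiments, while the labels do not say whether they came from separate cultures, so the tests measure the spread between these samples. The comparison asks which genes of nucleotide synthesis differ in RNA level between cells given miR-342-3p and cells given the control mimic.

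Cells build purines stepwise on an activated ribose phosphate (PRPP) until inosine monophosphate (IMP) is reached, from which AMP and GMP are made, whereas the pyrimidine ring is closed first and then joined to PRPP to give UMP. Ribonucleotide reductase turns ribonucleotides into deoxynucleotides, and thymidylate synthase makes the nucleotide whose base is particular to DNA. Many of these enzymes, above all those of dNTP supply, are known to be more abundant in S phase of dividing cells, and RAW264.7 cells divide in culture. Salvage enzymes return free bases and nucleosides to the nucleotide pool.

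The transfected microRNA is shown because it defines the treated group. Its mature sequence in RefSeq lies on chromosome 12 of the mouse assembly GRCm38.p6, plus strand, at chr12:108658680-108658702. It is written 5′ to 3′ with the seed, bases 2 to 8, in capitals.
mmu-miR-342-3p: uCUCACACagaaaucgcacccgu

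Across genes, the control arrays correlated with each other at r of 0.998 to 0.999 and the miR-342-3p arrays at 0.991 to 0.993. Of the miR-342-3p arrays, replicate 3 was close to the controls, with r of 0.996 against each of them. Array weights estimated by limma were 1.69 to 3.36 for the controls and 0.235 to 0.925 for the miR-342-3p arrays. Of 11 measured macrophage markers, 10 lay above the median gene, and the mean log2 value of the list was 10.42 to 10.44 on control and 10.28 to 10.45 on miR-342-3p arrays. None of 6 lymphocyte markers lay above the median gene, with list means of 5.44 to 5.54 and 5.46 to 5.85. The 5 fibroblast markers had list means of 6.91 to 6.97 in controls and 7.05 to 7.37 after miR-342-3p, and 3 of them lay above the median gene. By limma, 2 of the macrophage markers were lower and 2 higher, and of the fibroblast markers Pdgfra was higher, with a log2 fold change of 0.49 (FDR 0.0314). The 4 epithelial markers had list means of 6.56 to 6.70 and 6.70 to 6.83, and 1 of them lay above the median gene. The part of these marker levels in the results was not tested.

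MiR-342-3p-transfected cells had less RNA of 15 of the 36 measured genes and more of 1, while 20 did not pass the test. The test was limma's moderated test over all 19938 genes with Benjamini-Hochberg adjustment, and a gene was called at a false discovery rate (FDR) under 0.1. The downregulated genes were Prps1, Prps2, Ppat, Paics, Gmps, Adss and Hprt of the purine steps, Cad of the pyrimidine steps, and Rrm1, Rrm2, Tyms, Dut, Dtymk, Tk1 and Nme1 of the dNTP steps. The upregulated gene was Uck2. The called share was 41.7% of the measured genes for lower RNA, against 7.42% of all genes tested, and 2.78% for higher RNA, against 4.14% of all genes tested. Among genes with a mean level above the 50th percentile the share called lower was 13.6%, and above the 80th percentile it was 15.4%. The median log2 fold change of the 36 genes was -0.19, and that of all genes tested was 0.07.

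Remaining RNA of the 15 downregulated genes ranged from 54.4% of control for Dut to 84.2% for Adss. In 20 of the 36 genes every miR-342-3p array lay below every control array, and in 3 genes every one lay above, while of all genes tested 15.5% had groups that did not overlap in the lower and 21.4% in the higher direction. All 15 called genes were among the 20. Among the arrays, the fall was largest in replicate 1 for 12 of the 15 genes, and it was smallest in replicate 3 for 11 and in replicate 2 for 4. The median change of the 36 genes relative to the control mean was -0.26, -0.10 and -0.15 on miR-342-3p arrays 1, 2 and 3.

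The counts of calls depended on the control arrays. For the downregulated genes every miR-342-3p array lay below every control array, so leaving out an array could not change the sign. The sign is therefore no test of stability, and only the size of the change could vary. With each array left out in turn, the log2 fold changes ranged from -0.57 to -0.46 for Rrm2 and -0.60 to -0.45 for Tyms. They ranged from -0.64 to -0.48 for Hprt and from -0.28 to -0.21 for Adss. Without control replicate 1, 2 or 3 the genes called lower were 6, 4 and 6, while those called among all genes tested were 102, 115 and 140. Without miR-342-3p replicate 1, 2 or 3 the counts were 13, 16 and 16, and over all genes 986, 1830 and 2422. Ppat, Dut and Tk1 were called lower whichever array was left out. For Tk1 this holds for the probe set used, and through its second probe set the gene had an FDR of 0.125 on all arrays.

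**Figure D1:**
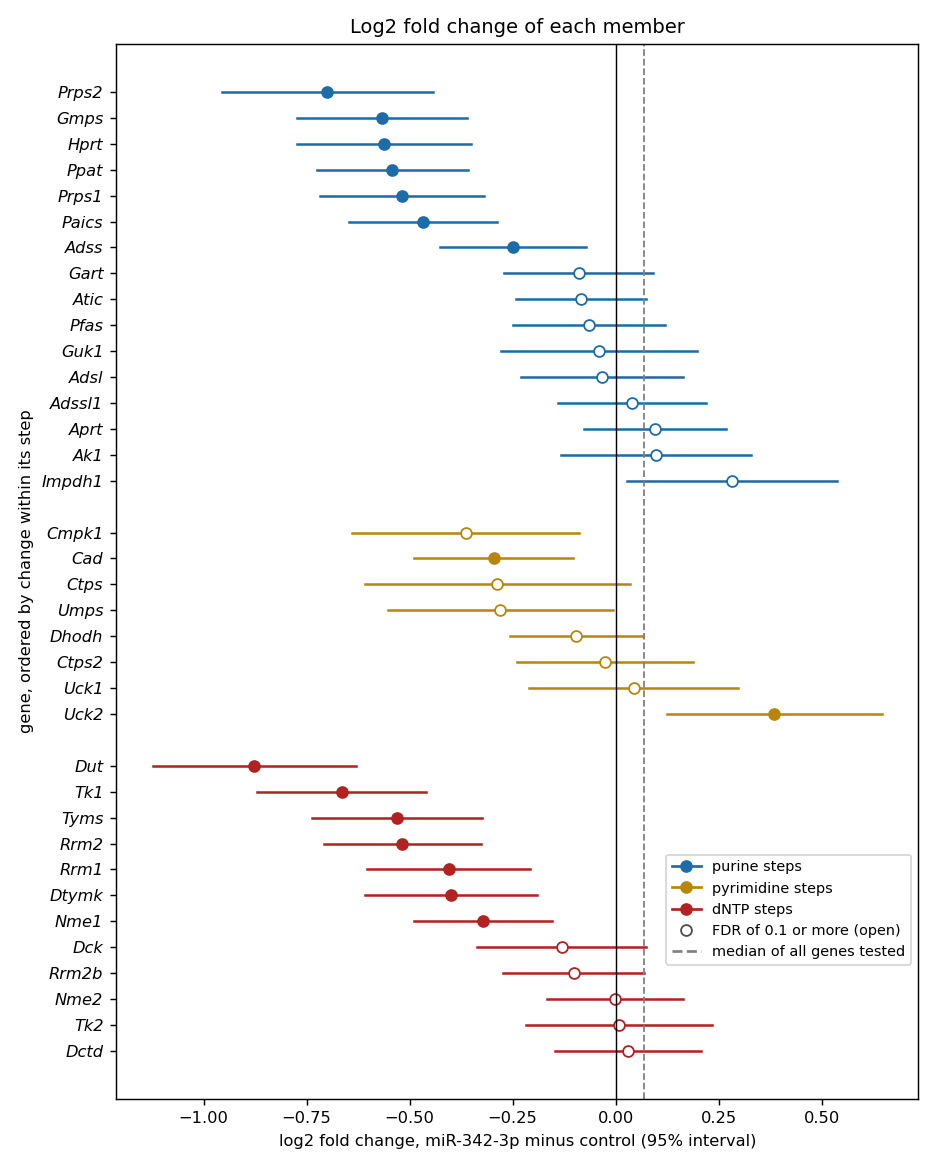
Log2 fold change of the 36 measured genes (horizontal axis, miR-342-3p minus control, 3 arrays per group), grouped into purine, pyrimidine and dNTP steps (vertical axis). Points are limma estimates with 95% intervals, filled where the FDR was under 0.1, and the dashed line is the median of all genes tested, 0.07. Dut, at -0.88, lies farthest to the left and Uck2, at 0.39, farthest to the right.

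In the purine steps 7 of 16 measured genes (43.8%) were downregulated and 0 upregulated by limma, against 7.42% and 4.14% of all genes tested. In either direction 8 purine genes had an unadjusted p under 0.05, which 25.5% of all genes tested reached. The median log2 fold change of the purine genes was -0.09. The downregulated genes act at the supply of PRPP (Prps1 and Prps2), on the way to IMP (Ppat and Paics), at both branches from IMP (Gmps and Adss) and in base salvage (Hprt).

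Both PRPP synthetases were downregulated. Prps1 values were 10.64, 10.75 and 10.55 on control arrays 1 to 3 and 10.02, 10.21 and 10.14 on the miR-342-3p arrays, on the log2 scale used for all values here. Its log2 fold change was -0.52 (SE 0.088, FDR 0.0203), and the groups did not overlap. Prps2 values were 10.60, 10.56 and 10.48 in controls and 9.70, 9.73 and 10.10 after miR-342-3p. This was the largest fall among the purine genes, with a log2 fold change of -0.70 (SE 0.113, FDR 0.0185), and replicate 3 lay nearest to the controls.

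Ppat encodes the amidotransferase that commits PRPP to purine synthesis. Ppat values were 9.59, 9.59 and 9.65 in controls and 8.97, 9.05 and 9.18 after miR-342-3p, for a log2 fold change of -0.54 (SE 0.080, FDR 0.0154). All miR-342-3p arrays lay below the controls. Paics, a bifunctional enzyme of the middle of the pathway, gave 11.00, 11.16 and 11.05 in controls and 10.54, 10.62 and 10.64 after miR-342-3p. Its log2 fold change was -0.47 (SE 0.079, FDR 0.0201), again without overlap. The other enzymes on the way to IMP were not called. Gart, which carries out several of these reactions, had a log2 fold change of -0.09 (FDR 0.469), Pfas of -0.06 (FDR 0.604), Adsl of -0.03 (FDR 0.809) and Atic, which closes the ring, of -0.08 (FDR 0.442). Their 95% intervals reached from -0.27 for Gart to 0.16 for Adsl, so falls of the size seen for Ppat lay outside them.

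At the branch from IMP, Gmps, the GMP synthetase, was downregulated with values of 10.07, 10.14 and 10.08 in controls and 9.44, 9.45 and 9.71 after miR-342-3p. The log2 fold change was -0.57 (SE 0.091, FDR 0.0185), and every miR-342-3p array lay below the controls. Adss, the adenylosuccinate synthase of most tissues, gave 10.82, 10.93 and 10.88 in controls and 10.65, 10.54 and 10.69 after miR-342-3p. This was the smallest called fall, with a log2 fold change of -0.25 (SE 0.078) and an FDR of 0.0995, just inside the threshold. Impdh1, an IMP dehydrogenase that feeds the GMP branch, gave 8.58, 8.46 and 8.51 in controls and 8.73, 9.04 and 8.62 after miR-342-3p. The groups did not overlap, but the log2 fold change of 0.28 had an FDR of 0.163. Without miR-342-3p replicate 3 the FDR of Impdh1 was 0.0666, and with quantile normalization repeated it was 0.0756.

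Hprt returns hypoxanthine and guanine to the nucleotide pool. Hprt values were 10.94, 10.97 and 10.97 in controls and 10.24, 10.39 and 10.56 after miR-342-3p, for a log2 fold change of -0.56 (SE 0.093, FDR 0.0190). Its control values lay close together and its miR-342-3p values were all lower, highest in replicate 3. Aprt, which does the same for adenine, had a log2 fold change of 0.10 (FDR 0.421), with miR-342-3p arrays all above the controls. The kinases Guk1 and Ak1, which phosphorylate GMP and AMP, had log2 fold changes of -0.04 (FDR 0.807) and 0.10 (FDR 0.533).

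Several purine calls were lost when an array was left out. Without control replicate 1 the FDR was 0.112 for Prps1, 0.107 for Prps2 and 0.106 for Hprt. Without control replicate 2 it was 0.121 for Prps1, 0.123 for Paics, 0.106 for Gmps and 0.107 for Hprt, and without control replicate 3 it was 0.105 for Paics and 0.105 for Hprt. Adss had an FDR of 0.25 to 0.319 without a control array, and of 0.111 and 0.115 without miR-342-3p replicate 1 or 2. Quantile normalization repeated on the genes tested gave 0.173 for Adss, and array weights 0.116.

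In the pyrimidine steps 1 of 8 measured genes was downregulated and 1 upregulated, or 12.5% each. Of all genes tested 7.42% were called lower and 4.14% higher, and of genes above the 50th percentile of level 13.6% and 6.19%. The share of pyrimidine genes called lower was thus near that of genes of higher level. Cad, the enzyme that carries out the first reactions of pyrimidine synthesis, gave 9.56, 9.59 and 9.56 in controls and 9.15, 9.41 and 9.26 after miR-342-3p. Its log2 fold change was -0.30 (SE 0.085, FDR 0.0786), and the groups did not overlap. The FDR of Cad was 0.251 to 0.261 without a control array and 0.116 without miR-342-3p replicate 1.

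Uck2, a uridine-cytidine kinase of the salvage route, was the upregulated gene. Uck2 values were 6.52, 6.29 and 6.40 in controls and 6.94, 6.87 and 6.55 after miR-342-3p, and the log2 fold change was 0.39 (SE 0.115, FDR 0.0870). Replicate 3 lay just above the highest control. The probe set used had a low mean value of 6.59, at percentile 38.1 of the genes tested. A second probe set of Uck2, with a higher mean value of 9.54, had a log2 fold change of 0.16. The gene had an FDR of 0.249 when measured through the second probe set and of 0.118 through the mean of both. The call was also lost without any 1 control array (FDR 0.19 to 0.28) and without miR-342-3p replicate 1 (0.18) or 2 (0.131). Under other scalings the FDR of Uck2 was 0.128 with arrays centred on their medians and 0.139 with quantile normalization repeated, and with array weights it was 0.152.

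The rest of the pyrimidine genes were not called, and several of them varied widely among the miR-342-3p arrays. Umps, which makes UMP, gave 10.00, 9.99 and 10.02 in controls and 9.47, 9.98 and 9.72 after miR-342-3p, with a log2 fold change of -0.28 (FDR 0.189). Cmpk1, which phosphorylates UMP and CMP, gave 9.51, 9.37 and 9.48 in controls and 8.84, 9.10 and 9.33 after miR-342-3p, with a log2 fold change of -0.36 (FDR 0.114). In both genes every miR-342-3p array lay below the controls, with replicate 2 nearest to them for Umps and replicate 3 for Cmpk1. Ctps, a CTP synthase, gave 9.01, 8.89 and 9.06 in controls and 8.43, 9.03 and 8.63 after miR-342-3p, with a log2 fold change of -0.29 (FDR 0.234), and here the groups overlapped through replicate 2. Without miR-342-3p replicate 2 the FDR was 0.0539 for Umps and 0.0489 for Ctps, and without replicate 3 it was 0.0262 for Cmpk1. Cmpk1 also had an FDR of 0.0782 when only genes above the median level were tested, of 0.0952 with arrays centred on their medians and of 0.0899 with a trended and robust prior. Dhodh, the mitochondrial dehydrogenase of the pathway, had a log2 fold change of -0.10 (FDR 0.396), Ctps2 of -0.03 (FDR 0.867) and Uck1 of 0.04 (FDR 0.808).

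The dNTP steps held the largest share of downregulated genes of the 3 groups of steps, 7 of 12 measured genes or 58.3%. Of all genes tested 7.42% were called lower, and of genes above the 80th percentile of level 15.4%. In the dNTP steps 0 genes were upregulated by limma and 7 had an unadjusted p under 0.05 (25.5% of all genes tested). The difference between the groups of steps was not tested. Their median log2 fold change was -0.36, and the median change was -0.41, -0.34 and -0.25 on miR-342-3p arrays 1, 2 and 3. In bulk RNA, fewer cells in a phase of the cell cycle and less RNA per cell cannot be told apart. The 6 genes of the MCM helicase, which unwinds DNA in replication, were all called lower as well, against 7.42% of all genes tested. Their median log2 fold change was -0.29. The FDR was 0.0275 for Mcm4 and 0.0389 for Mcm6, and 0.0747 to 0.0803 for Mcm2, Mcm3, Mcm5 and Mcm7. Whether these calls hold without 1 array was not examined. The part of the MCM change in the dNTP values was not tested.

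Ribonucleotide reductase is built of the large subunit Rrm1 and a small subunit, Rrm2 in cycling cells or the p53-inducible Rrm2b. Rrm1 values were 11.55, 11.59 and 11.60 in controls and 11.08, 11.12 and 11.33 after miR-342-3p, for a log2 fold change of -0.41 (SE 0.087, FDR 0.0368). Rrm2 values were 11.47, 11.52 and 11.54 in controls and 10.87, 11.00 and 11.10 after miR-342-3p, for a log2 fold change of -0.52 (SE 0.084, FDR 0.0185). Both subunits were lower on all miR-342-3p arrays. Rrm2b gave 7.89, 7.92 and 7.85 in controls and 7.85, 7.71 and 7.80 after miR-342-3p, with a log2 fold change of -0.10 (FDR 0.391).

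Dut removes uracil from the dNTP pool by hydrolysing dUTP to dUMP, the substrate of thymidylate synthase. Dut values were 9.89, 9.79 and 9.68 in controls and 8.83, 8.77 and 9.12 after miR-342-3p. With a log2 fold change of -0.88 (SE 0.109, FDR 0.0093), it had the largest fall of all measured genes of the list, to 54.4% of control. Tyms, the thymidylate synthase, gave 10.01, 10.05 and 10.01 in controls and 9.33, 9.52 and 9.63 after miR-342-3p, for a log2 fold change of -0.53 (SE 0.091, FDR 0.0207). Dtymk, which phosphorylates the product of Tyms, gave 10.44, 10.43 and 10.50 in controls and 9.90, 10.08 and 10.20 after miR-342-3p, for a log2 fold change of -0.40 (SE 0.092, FDR 0.0460). These 3 genes, which act one after the other, were lower on every miR-342-3p array than on any control array. Dctd, the dCMP deaminase that also supplies dUMP, had a log2 fold change of 0.03 (FDR 0.812).

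Tk1, the cytosolic thymidine kinase of the salvage route, is known to be made in S phase. Tk1 values were 10.10, 10.04 and 10.03 in controls and 9.23, 9.49 and 9.46 after miR-342-3p, for a log2 fold change of -0.67 (SE 0.090, FDR 0.0119). A second probe set of Tk1, whose mean value was slightly higher, had a log2 fold change of -0.28, and with it the gene had an FDR of 0.125. Its probe sets thus gave the same direction and a different size. Dck, the deoxycytidine kinase, had a log2 fold change of -0.13 (FDR 0.363). The mitochondrial thymidine kinase Tk2 gave 8.11, 8.02 and 8.09 in controls and 7.96, 8.29 and 7.99 after miR-342-3p, with a log2 fold change of 0.01 (FDR 0.959).

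Nme1 and Nme2 encode nucleoside diphosphate kinases, which carry out the last phosphorylation to the triphosphate. Nme1 values were 10.38, 10.51 and 10.44 in controls and 10.13, 10.15 and 10.09 after miR-342-3p, for a log2 fold change of -0.32 (SE 0.074, FDR 0.0450). Its miR-342-3p arrays lay close together and below all controls. Nme2 gave 10.09, 10.10 and 10.09 in controls and 10.04, 10.16 and 10.06 after miR-342-3p, and its log2 fold change was 0.00 (95% interval -0.17 to 0.16, FDR 0.993). Near-identical transcripts may share array signal, which was not tested.

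Leaving out a control array ended most of the dNTP calls. The FDR was 0.151 to 0.171 for Rrm1, 0.105 to 0.116 for Tyms, 0.172 to 0.194 for Dtymk and 0.153 to 0.215 for Nme1 without any 1 of the controls. Rrm2 had an FDR of 0.107 without control replicate 2 and of 0.105 without control replicate 3. All 7 dNTP calls were kept without any 1 of the miR-342-3p arrays.

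**Figure D2:**
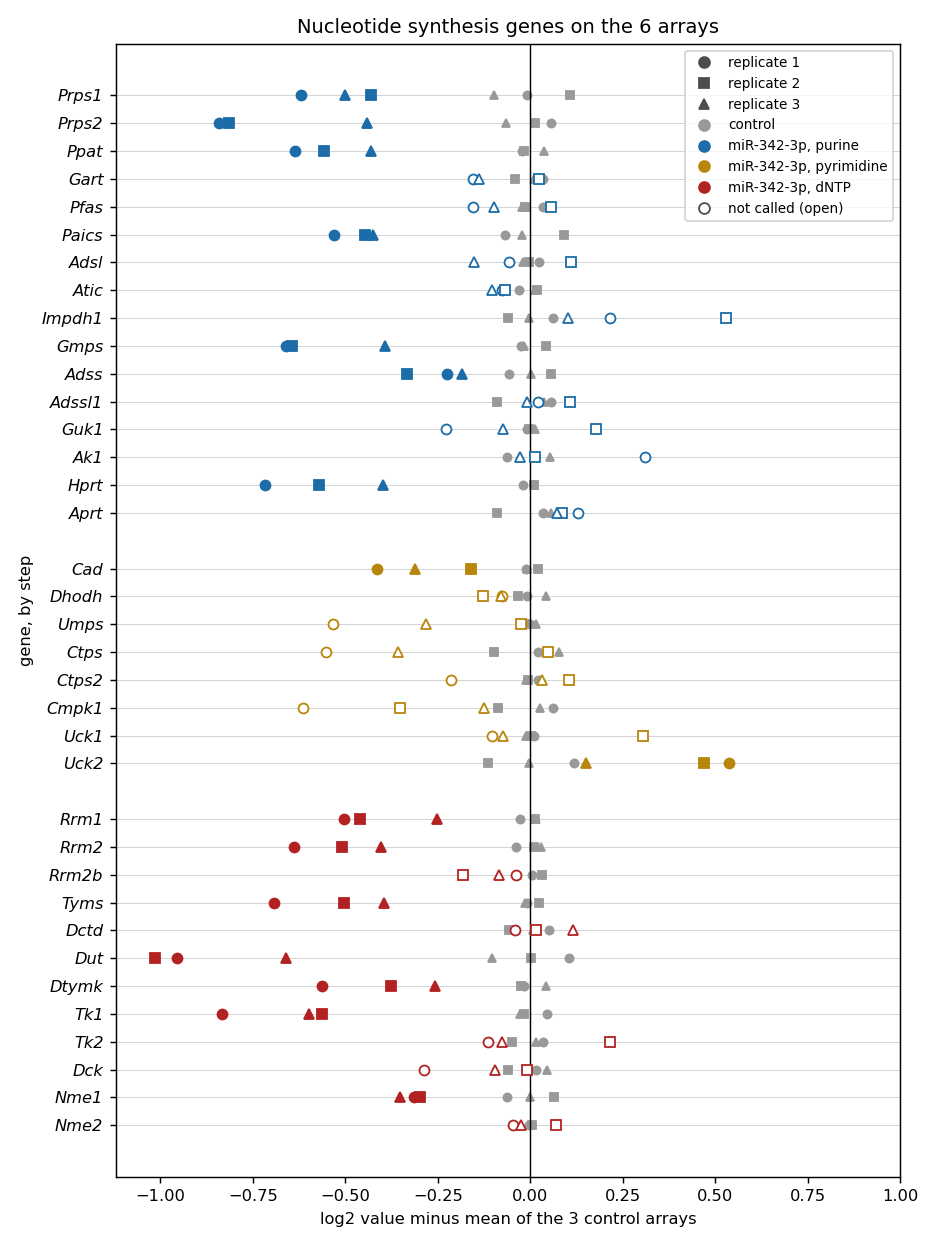
Log2 value on each array minus the mean of the 3 control arrays (horizontal axis) for the 36 measured genes in the order of their steps (vertical axis). Gray symbols are control arrays and colored symbols miR-342-3p arrays, with the shape giving the replicate and filled symbols a call. The filled symbols of the 15 downregulated genes all lie to the left of the gray ones, with replicate 1 farthest left in 12 of them.

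Promoter windows are shown for the dNTP genes with the largest falls, Dut and Tk1, for the purine gene with the largest fall, Prps2, and for Ppat and Paics. The last pair was chosen after its values were seen, because both genes were downregulated and their starts lie 276 bases apart on opposite strands. The RefSeq windows of the assembly GRCm38.p6 run from 250 bases before to 50 bases after an annotated start of a gene. They are written 5′ to 3′ on its strand. The annotated start is not always the outermost end of the gene. The Dut gene begins at chr2:125247248, so its window lies inside the gene, as does that of Gmps. Capitals mark matches to an E2F-type motif (searched as TTTCCCGC, TTTGGCGC, TTTCGCGC or TTTGCCGC), an E-box (CACGTG) or a CCAAT box (CCAAT), on both strands, of which none contains another.
Dut, chr2:125247265-125247564, plus strand: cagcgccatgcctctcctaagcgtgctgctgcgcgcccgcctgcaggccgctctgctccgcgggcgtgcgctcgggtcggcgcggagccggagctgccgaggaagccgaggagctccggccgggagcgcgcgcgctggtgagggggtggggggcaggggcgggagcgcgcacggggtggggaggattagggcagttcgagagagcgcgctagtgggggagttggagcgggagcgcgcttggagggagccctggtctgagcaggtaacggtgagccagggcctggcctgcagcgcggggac
Tk1, chr11:117825965-117826264, minus strand: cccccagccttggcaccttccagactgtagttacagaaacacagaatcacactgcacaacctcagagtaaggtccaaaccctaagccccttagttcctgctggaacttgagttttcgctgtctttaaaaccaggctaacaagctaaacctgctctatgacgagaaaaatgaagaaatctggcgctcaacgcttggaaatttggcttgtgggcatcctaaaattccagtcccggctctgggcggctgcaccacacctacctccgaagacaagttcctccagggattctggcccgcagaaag
Prps2, chrX:167382700-167382999, minus strand: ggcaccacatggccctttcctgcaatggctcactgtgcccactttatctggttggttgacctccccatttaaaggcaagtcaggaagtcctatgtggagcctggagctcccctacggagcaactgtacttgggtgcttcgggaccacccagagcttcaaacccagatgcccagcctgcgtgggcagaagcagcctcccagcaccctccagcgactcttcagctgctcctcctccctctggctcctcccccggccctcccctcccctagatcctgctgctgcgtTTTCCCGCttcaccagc
Ppat, chr5:76951529-76951828, minus strand: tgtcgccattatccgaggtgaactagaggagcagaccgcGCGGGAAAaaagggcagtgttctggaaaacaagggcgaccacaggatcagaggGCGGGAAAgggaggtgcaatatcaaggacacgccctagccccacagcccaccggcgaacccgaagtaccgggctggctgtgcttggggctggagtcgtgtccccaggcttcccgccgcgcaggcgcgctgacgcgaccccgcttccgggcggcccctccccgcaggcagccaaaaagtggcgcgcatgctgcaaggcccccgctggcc
Paics, chr5:76951052-76951351, plus strand: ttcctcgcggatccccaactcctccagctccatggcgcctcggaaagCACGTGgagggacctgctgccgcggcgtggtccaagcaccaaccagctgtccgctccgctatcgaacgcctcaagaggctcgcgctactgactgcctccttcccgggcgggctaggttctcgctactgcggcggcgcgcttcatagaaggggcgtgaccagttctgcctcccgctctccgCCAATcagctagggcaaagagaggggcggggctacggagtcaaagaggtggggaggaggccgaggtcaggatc

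The windows of Dut and Tk1 held none of these letters and had a GC content of 75.0% and 50.7%. The bases upstream of the Dut gene were not searched. The window of Prps2 held 1 E2F-type match downstream of the start, that of Ppat held 2 upstream of the start, and that of Paics held an E-box and a CCAAT box. Of the 37 genes, 34 had a window, among them all 15 downregulated genes, and Pfas, Dhodh and Rrm2b did not. Some genes had several windows, 47 in all, and a gene was counted where any of its windows held the letters. The E2F-type letters occurred in 2 of the 34 genes, Ppat and Prps2, and in 2.60% of all 27025 genes with a window. The E-box occurred in 6 of the 34 genes, 4 of them downregulated (Paics, Tyms, Dtymk and Nme1), and in 8.09% of all genes. The CCAAT box occurred in 12 of the 34, in 5 of the 15 downregulated genes and 6 of the 18 other measured genes, and in 41.1% of all genes. A match to these letters is a description and does not show binding of a factor.

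Whether a gene changed more than its paralog was tested in 7 pairs, as the difference between their log2 values on each array relative to the control mean. An exact two-sided permutation test over the 6 arrays was used, whose smallest possible p is 0.1 with 3 arrays against 3, so that no pair could pass 0.05. The difference is between changes and not between levels. The pairs were chosen with earlier results of these data known, and the share of non-overlapping pairs among other genes was not examined. Of single genes tested, 15.5% had groups that did not overlap in the lower and 21.4% in the higher direction.

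The S-phase kinase Tk1 relative to the mitochondrial Tk2 gave -0.72, -0.78 and -0.52 on miR-342-3p arrays 1 to 3, while the control arrays lay between -0.04 and 0.03. The mean difference was -0.67 (exact p = 0.1), and it was -0.29 with the probe set of highest mean for each gene. Rrm2 relative to Rrm2b gave -0.60, -0.33 and -0.32 on the miR-342-3p arrays and -0.04 to 0.06 on the controls, a mean difference of -0.42 (exact p = 0.1). Nme1 relative to Nme2 gave -0.27, -0.37 and -0.33 against -0.06 to 0.06, a mean difference of -0.32 (exact p = 0.1). In these 3 pairs the arrays of the groups did not overlap, which in this design is the same as reaching the smallest possible p.

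Adss relative to Adssl1, the synthase known from muscle, gave -0.25, -0.44 and -0.18 on the miR-342-3p arrays and -0.11 to 0.15 on the controls, a mean difference of -0.29 (exact p = 0.1). Adssl1 itself gave 9.47, 9.32 and 9.45 in controls and 9.43, 9.52 and 9.41 after miR-342-3p. Uck1 relative to Uck2 gave -0.64, -0.16 and -0.22 against -0.11 to 0.12, a mean difference of -0.34 (exact p = 0.1). Uck1 gave 8.68, 8.67 and 8.66 in controls and 8.57, 8.97 and 8.60 after miR-342-3p, so its values were spread on both sides of the controls. The difference of the Uck pair was -0.11 with the probe set of highest mean and -0.17 with quantile normalization repeated (exact p = 0.3 for both).

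The CTP synthases and the PRPP synthetases overlapped between the groups. Ctps relative to Ctps2 gave -0.34, -0.05 and -0.39 on the miR-342-3p arrays and -0.09 to 0.09 on the controls, a mean difference of -0.26 (exact p = 0.2). Ctps2 gave 8.60, 8.58 and 8.57 in controls and 8.37, 8.69 and 8.62 after miR-342-3p. Prps1 relative to Prps2 gave 0.22, 0.38 and -0.06 against -0.06 to 0.10, a mean difference of 0.18 (exact p = 0.3). This difference was 0.08 without miR-342-3p replicate 2 and 0.30 without replicate 3. No pair of Impdh genes could be formed, as Impdh2 was not measured.

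**Figure D3:**
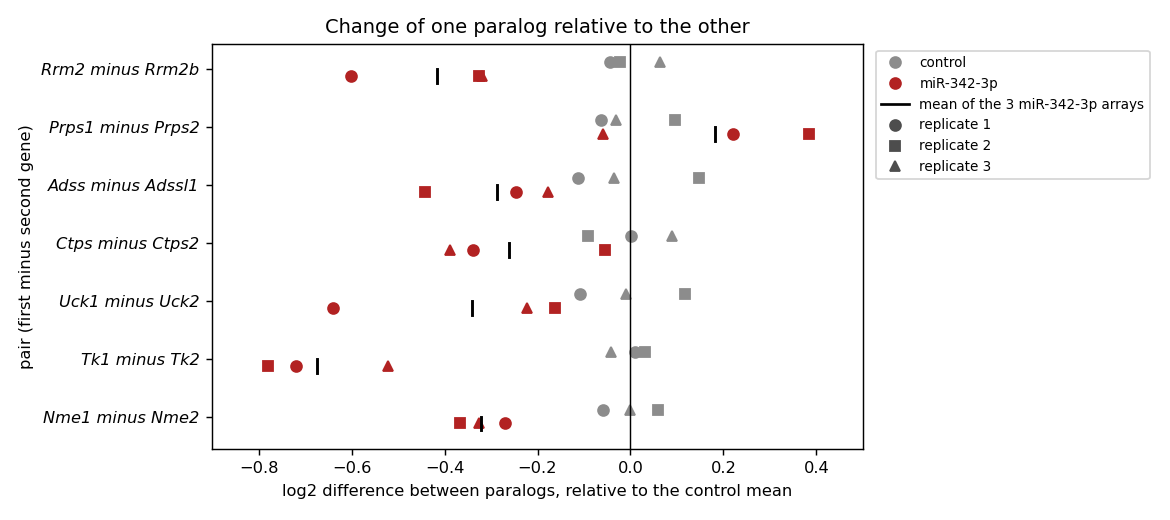
Difference in log2 value between 2 paralogs on each array, relative to the mean of the control arrays (horizontal axis), for 7 pairs (vertical axis). Gray symbols are the 3 control arrays, red symbols the 3 miR-342-3p arrays and the black bar their mean, at -0.67 for Tk1 minus Tk2 and 0.18 for Prps1 minus Prps2. Red and gray symbols are apart in 5 pairs and overlap for the Prps and Ctps pairs. The pairs were chosen with earlier results of these data known.

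Genes next to these pathways were taken from a list of 61, of which 52 were measured. By limma, 9 were downregulated (17.3%) and 3 upregulated (5.77%), with a median log2 fold change of -0.03. Of all genes tested 7.42% were called lower and 4.14% higher. Among genes above the 50th percentile of level the shares were 13.6% and 6.19%, and above the 80th percentile 15.4% and 7.4%. The median level of the neighboring genes lay at percentile 76.5, so their shares were near those of genes of like level. The folate enzymes, which supply carbon units to purine and thymidylate synthesis, had 2 of 9 measured genes downregulated. Ggh, which trims glutamates from folates in the lysosome, gave 8.40, 8.30 and 8.27 in controls and 7.16, 7.65 and 7.66 after miR-342-3p, for a log2 fold change of -0.83 (SE 0.133, FDR 0.0182). Mthfd1, a trifunctional folate enzyme, gave 10.05, 10.08 and 10.09 in controls and 9.66, 9.88 and 9.78 after miR-342-3p, for a log2 fold change of -0.30 (SE 0.081, FDR 0.0699). Both genes were lower on every miR-342-3p array. In the pentose phosphate pathway, the source of ribose phosphate, 1 of 6 measured genes was downregulated. It was the epimerase Rpe, with 9.20, 9.29 and 9.19 in controls and 8.54, 8.89 and 8.92 after miR-342-3p, for a log2 fold change of -0.44 (SE 0.110, FDR 0.0562).

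Of 21 measured genes of nucleotide breakdown and dNTP hydrolysis, 4 were downregulated and 2 upregulated. Nt5c3, a pyrimidine nucleotidase, gave 8.12, 8.17 and 8.09 in controls and 6.86, 7.51 and 7.42 after miR-342-3p, for a log2 fold change of -0.86 (SE 0.153, FDR 0.0227). Pnp, the purine nucleoside phosphorylase, gave 10.03, 10.05 and 9.96 in controls and 9.33, 9.74 and 9.57 after miR-342-3p, for a log2 fold change of -0.47 (SE 0.107, FDR 0.0445). Samhd1, a dNTP hydrolase, gave 11.08, 11.06 and 11.02 in controls and 10.58, 10.54 and 10.83 after miR-342-3p, for a log2 fold change of -0.40 (SE 0.092, FDR 0.0450). The downregulated genes were 19% of this list and the upregulated ones 9.52%. Among genes above the 50th percentile of level these shares were 13.6% and 6.19%. The median log2 fold change of the breakdown list was 0.04. Ampd3, an AMP deaminase, was upregulated with 10.74, 10.66 and 10.68 in controls and 11.37, 11.54 and 11.28 after miR-342-3p, for a log2 fold change of 0.70 (SE 0.087, FDR 0.0093).

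Further salvage enzymes and kinases had 2 of 12 measured genes downregulated and 1 upregulated, and of 4 nucleoside transporters none was called by limma, with 1 at an unadjusted p under 0.05, a share near the 25.5% of all genes tested. Uprt, a homolog of uracil phosphoribosyltransferase, gave 8.69, 8.81 and 8.70 in controls and 8.08, 7.79 and 8.23 after miR-342-3p, for a log2 fold change of -0.70 (SE 0.114, FDR 0.0185). Adk, the adenosine kinase, gave 8.38, 8.31 and 8.37 in controls and 7.57, 8.12 and 7.93 after miR-342-3p, for a log2 fold change of -0.48 (SE 0.130, FDR 0.0685). Cmpk2, a mitochondrial kinase known as an interferon-induced gene, gave 6.84, 7.00 and 6.97 in controls and 7.65, 7.91 and 7.31 after miR-342-3p, for a log2 fold change of 0.69 (SE 0.139, FDR 0.0315). All 3 had groups that did not overlap. Ggh and Ampd3 were called whichever array was left out. Without any 1 control array the FDR was 0.232 to 0.253 for Mthfd1, 0.179 to 0.211 for Rpe, 0.165 to 0.188 for Samhd1, 0.144 to 0.18 for Pnp, 0.199 to 0.226 for Adk and 0.117 to 0.147 for Cmpk2. The call was lost for Nt5c3 without control replicate 1 (FDR 0.11) or 2 (0.108) and for Uprt without control replicate 2 (0.106).

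**Figure D4:**
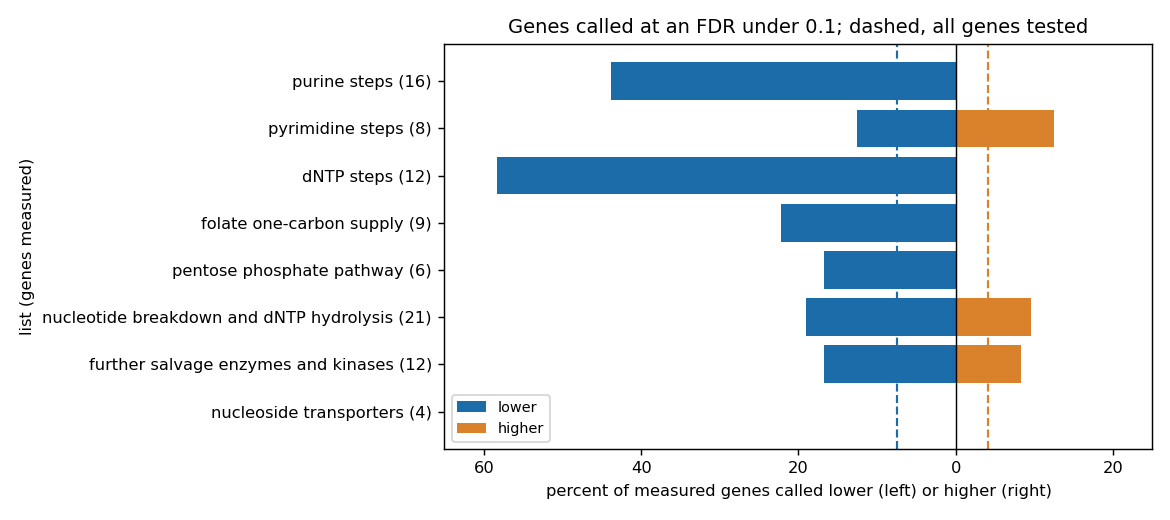
Percent of the measured genes of each list (vertical axis, number measured in parentheses) that limma called lower (blue, to the left) or higher (orange, to the right) in miR-342-3p-transfected cells at an FDR under 0.1. Dashed lines mark all genes tested, 7.42% lower and 4.14% higher. The dNTP steps reach 58.3% lower and the nucleoside transporters 0 in both directions.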

How the data were processed

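RAW264.7 cells transfected with control or miR-342-3p mimics were measured on 3 Affymetrix arrays each. The authors ran RMA on the scans, which adjusts the background, brings all arrays to a common distribution and summarizes probes, and the deposited log2 values cover 35556 probe sets. For RMA, the version was not given in the sources used here. A shift common to most genes would not be seen after such a normalization. In the platform annotation 21789 probe sets had 1 gene, 1621 had several and 12146 had none listed. Groups were taken from the labels. The 19938 genes were tested with limma version 3.58.1 in R version 4.3.3 (lmFit and eBayes, group as the only term) without a filter on level, and the steps were tested on simulated data. Plots were made in Python version 3.11.15 with matplotlib version 3.10.9. All called genes of the list and all paralogs of the pairs were given with their array values, and of the neighboring genes up to 4 called ones per sub-list with the largest changes. The list, the neighboring lists, the pairs and the motifs were chosen with earlier results of these data known. Other settings concerned a block for the replicate number, omission of each array, the choice of probe set, a filter on level, the scaling, the prior, array weights, the threshold and the methods' t-test, which is the general test of the paper. The small number of arrays limits the precision, and no read depth applies to them. Protein sequences were not used here.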

Additional observations from a re-analysis of the deposited data

How the results depend on the processing

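Of the 15 downregulated genes, 12 were called under 8 alternatives of block, probe set, level, scaling, prior and weights, the exceptions being Adss, Cad and Tk1. Same-numbered arrays of the groups deviated from their group means with correlations of -0.31, -0.16 and -0.11. This shows no shared deviation, but it cannot decide whether the numbers pair the arrays, because the few arrays were of uneven weight. With the replicate block 14 of the 16 calls were kept, Adss had an FDR of 0.212 and Cad of 0.134, and 0 pyrimidine genes were called lower. The methods' t-test at an unadjusted p under 0.05 called 17 genes lower, 2 of them pyrimidine genes, against 9.81% of all genes, and 5 of 52 neighboring genes higher, against 10.4% of all genes. After Benjamini-Hochberg adjustment it called 0 lower in the purine, pyrimidine and dNTP steps and 0 higher, and 0 neighboring genes lower and 0 higher. At an FDR under 0.05, 0 genes of the list were higher, 0 pyrimidine genes and 5 neighboring genes lower. At an FDR of 0.01 or less, 1 gene was lower (of the dNTP steps, with 0 purine and 0 pyrimidine), 0 higher, and of neighboring genes 0 lower and 1 higher. No gene of the list was called higher (0) with the probe set of highest mean, the mean over probe sets, centred arrays or array weights. The count was 0 with the level filter too, but there Uck2 was removed by the filter and not tested. Pyrimidine genes called lower were 2 with the level filter, with centred arrays and with the trended prior, and neighboring genes called higher were 5 with quantile normalization repeated. Leaving out 1 array gave 4 to 16 genes lower and 0 to 2 higher, 2 to 7 purine, 0 to 3 pyrimidine and 2 to 7 dNTP genes lower, and 1 to 14 neighboring genes lower and 1 to 5 higher. Of all called genes 64.2% were lower, against 84.2% with centred arrays and 50.7% with repeated quantile normalization, and the median change of all genes was 0.07, 0.00 and 0.02. Signs changed only in genes that were not called. For the called genes, whose groups did not overlap, leaving out 1 array could not change the sign. With repeated quantile normalization the log2 fold change was 0.0012 for Pfas, 0.030 for Adsl, 0.021 for Guk1, 0.048 for Ctps2 and 0.058 for Nme2. With centred arrays it was -0.031 for Adssl1, -0.027 for Uck1, -0.041 for Dctd and -0.061 for Tk2, and with array weights 0.014 for Ctps2 and -0.013 for Tk2. The lowest and highest values without 1 array were -0.11 to 0.026 for Adsl, -0.0059 to 0.067 for Adssl1, -0.15 to 0.052 for Guk1, -0.0072 to 0.16 for Ak1, -0.091 to 0.068 for Ctps2, -0.088 to 0.12 for Uck1, -0.013 to 0.064 for Dctd, -0.095 to 0.070 for Tk2 and -0.036 to 0.021 for Nme2. The cause of these changes was not tested.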
